A study of Mus musculus with 2 samples.

Results

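Immunoglobulin-type neural adhesion molecules are surface proteins whose outer part is built from immunoglobulin domains and which join cells to each other. The 10 genes Ncam1, Ncam2, L1cam, Chl1, Nrcam, Nfasc, Alcam, Cntn1, Cadm1 and Dscam were chosen by name, and each is 1 of the 23284 gene symbols in both count tables. They were described in RNA-seq of GFP-positive cells sorted from whole pancreata of e15.5 mouse embryos with the NGN3-EGFP reporter, a stage at which cells that switch on Neurog3 are leaving the epithelium to become endocrine cells. The series holds 1 group of 2 libraries, called replicates 1 and 2 here. The labels give the strain as mixed, C57BL6, and both samples carry the reporter. They say neither how the reporter was built nor whether embryos or litters were pooled for a library. The spread between the libraries may therefore be technical, and there is no other condition to compare them with.

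Most of these proteins bind a partner on the next cell, often another copy of themselves, and pass tension or signals to the cytoskeleton. Ncam1 can carry polysialic acid, a long sugar chain that weakens adhesion and is found on migrating cells. The L1 family (L1cam, Chl1, Nrcam and Nfasc) binds ankyrins inside the cell and is best known from growing axons and nodes of Ranvier. In the pancreas, Ncam1 is known from the surface of endocrine cells and from the way islet cell types arrange themselves.

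Replicate 1 held 12495143 counted reads and replicate 2 held 12043734. Of all symbols, 13454 had a read in replicate 1 and 14204 in replicate 2. Levels are given as CPM, the reads of a gene divided by the total of its library (scaled with edgeR's TMM factors) and multiplied by 1000000, and levels of different genes are compared only per kb of exon. All 7 endocrine markers were above 1 CPM in both libraries, with summed levels of 9292 and 9442 CPM in replicates 1 and 2, and Neurog3 itself was at 736 and 551 CPM. All 4 epithelial markers were also above 1 CPM, where 45.7% of all symbols reached 1 CPM in both libraries. Of 8 glial and neural crest markers 2 were, among them Erbb3, and the list summed to 25.5 and 15.54 CPM. Foxd3 had no read in either library, and Sox10 had 0 and 5 reads. Of 9 neuronal markers 7 were, among them Elavl4 at 35.2 and 5.46 CPM, and also Snap25 and Nefm, which endocrine cells also express. The other 2, among them Prph, had no read in either library, and the list summed to 542 and 476 CPM. The mesenchymal list of 7 genes summed to 368 and 136 CPM. The 5 endothelial genes summed to 15.8 and 0.909 CPM, nearly all of it Cdh5, and the 4 immune genes to 56.4 and 11.7 CPM. The 5 acinar genes summed to 1563 and 1190.5 CPM, most of it Ctrb1 at 1321 and 986 CPM, and 4 of them were above 1 CPM in both libraries. Ptf1a, a factor that defines the acinar lineage, had 0 and 3 reads, while Rbpjl of the same list was at 30.5 and 8.51 CPM.

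Alcam, Ncam1 and Nfasc were the abundant members among the 10 genes. Together they held 83.3% of the reads of the 10 genes in replicate 1 and 89.1% in replicate 2. All 10 genes together took 0.0458% and 0.0518% of all counted reads. The genes at 1 CPM or more in both libraries were 6 of 10, where 45.7% of all symbols were, and those at 100 CPM or more in both were 3 of 10, where 7.85% of all symbols were. These counts are not corrected for length: the median exon length of the 10 genes was 6804 bases, against 3348 bases for the 13272 tested symbols with a known length. Each library is a pool of cells, so fewer cells with a transcript and less of it per cell cannot be told apart.

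Alcam, which binds itself and the T-cell receptor Cd6 and guides axons and leukocytes, had 1396 reads in replicate 1 and 1894 in replicate 2. That is 112 and 157 CPM, with a mean of 134 ± 31.4 CPM (SD, n = 2). Over 6552 bases of exon it came to 17.1 and 23.9 CPM per kb, the highest of the 10 genes in each library. Its mean level per kb was above that of 75.1% of tested symbols. No read of Cd6 was counted in either library, which allows up to 0.241 and 0.248 CPM by the one-sided limit of 3 reads.

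Ncam1, the carrier of polysialic acid, had 1254 and 1608 reads, or 101 and 133 CPM (117 ± 22.7 CPM, SD, n = 2). Per kb of its 7056 exon bases it was at 14.3 and 18.8 CPM, above 66.3% and 73.2% of tested symbols. Its mean level per kb was above that of 70.2%. Its exons overlap those of Gm11149 on the other strand, which had 10 and 0 reads.

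Nfasc, which anchors ion channels at the axon initial segment and at nodes, was nearly identical in the libraries. It had 2115 and 2060 reads, 170.01 and 170.29 CPM, and a mean of 170.2 ± 0.196 CPM (SD, n = 2). Its exons are the longest of the 10 genes, 10723 bases, so per kb it came after Alcam and Ncam1 on the mean, at 15.9 CPM in each library. Among the 3 abundant genes the order was not fixed: Ncam1 was below Nfasc in replicate 1, with a ratio per kb of 0.901, and above it in replicate 2, with a ratio of 1.19. Alcam and Ncam1 also had overlapping ranges, although Alcam was higher within each library, by 1.20-fold and 1.27-fold per kb.

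These 3 genes lay above the other 7 in each library. Nfasc lay above L1cam, the next gene by mean, by 2.18-fold per kb in replicate 1 and 9.24-fold in replicate 2, and their ranges did not overlap. Within each library the gap was narrower. In replicate 1 it ran from Ncam1 at 14.3 to L1cam at 7.26 CPM per kb. In replicate 2 it ran from Nfasc at 15.9 to Cadm1 at 4.02. The next step in replicate 1, from L1cam to Chl1 at 2.89, was wider as a ratio. Below that gap every pair of neighbours in the order had overlapping ranges. With 2 paired libraries an exact test of an order cannot give a p below 0.5, so orders are given as values only.

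**Figure D1:**
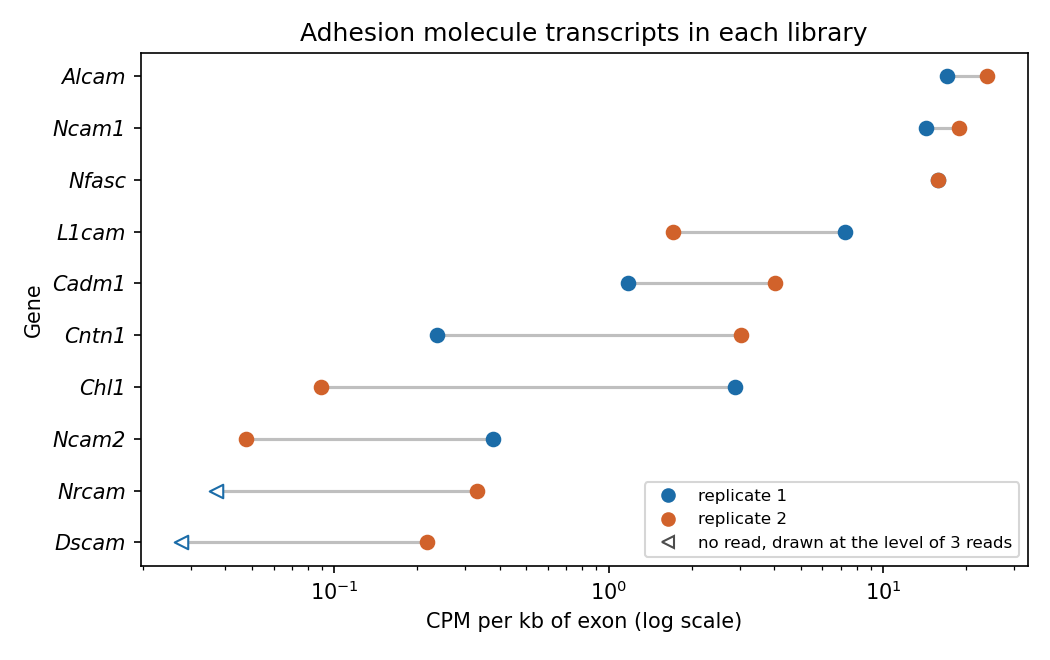
Level of each of the 10 genes in CPM per kb of exon (log axis), with 1 point for each library joined by a grey line and genes ordered by mean. Alcam, Ncam1 and Nfasc lie between 14.3 and 23.9 in both libraries, and the points of the other genes lie far apart. Nrcam and Dscam, with no read in replicate 1, are drawn there as open triangles at the level of 3 reads.

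Within the L1 family Nfasc was the main transcript. It made up 61.0% of the family's summed level per kb in replicate 1 and 88.1% in replicate 2. L1cam, which drives axon growth and fasciculation, had 478 and 110 reads, or 38.4 and 9.09 CPM. It was thus 4.23-fold higher in replicate 1 and made up 27.9% and 9.54% of the family. Chl1, the close homolog of L1cam, had 332 reads in replicate 1 and 10 in replicate 2, or 26.7 and 0.827 CPM. The 95% exact Clopper-Pearson intervals, which cover counting error only, ran from 23.9 to 29.7 CPM in replicate 1 and from 0.396 to 1.52 CPM in replicate 2. This 32.3-fold difference was the widest among members with reads in both libraries. Nrcam, a partner of Nfasc at nodes, went the other way, with 0 and 26 reads, the latter 2.15 CPM. Against the limit of 3 reads it was at least 8.91-fold higher in replicate 2. Summed over the family, the level per kb was 26.0 and 18.0 CPM.

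The NCAM family was almost all Ncam1. Ncam2, known from olfactory axons, had 41 and 5 reads, or 3.30 and 0.413 CPM. It made up 2.58% and 0.251% of the family's level per kb, and Ncam1 exceeded it by 37.7-fold and 397-fold. Ncam1 was higher in replicate 2 and Ncam2 in replicate 1.

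Alcam was likewise the main gene beside Mcam and Bcam, which share its layout of immunoglobulin domains. Its share of their summed level per kb was 72.8% and 77.0%. Mcam, a molecule of vessel walls and muscle, was at 14.3 and 4.55 CPM, and Bcam, a laminin receptor, at 3.94 and 13.6 CPM. These paralogs changed places, as Mcam was above Bcam in replicate 1 and below it in replicate 2.

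No single gene led the CADM family, whose members (also called SynCAMs or nectin-like molecules) join epithelial cells and synapses. Cadm1 had 84 and 280 reads, or 6.75 and 23.1 CPM, a 3.43-fold difference toward replicate 2. Cadm3 was at 17.9 and 10.003 CPM, Cadm4 at 3.22 and 6.53 CPM and Cadm2 at 1.77 and 2.23 CPM. Per kb Cadm1 was 0.344 times the level of Cadm3 in replicate 1 and 2.11 times in replicate 2. Its share of the family was 18.8% and 43.8%, so the libraries disagreed on which CADM transcript came first.

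**Figure D2:**
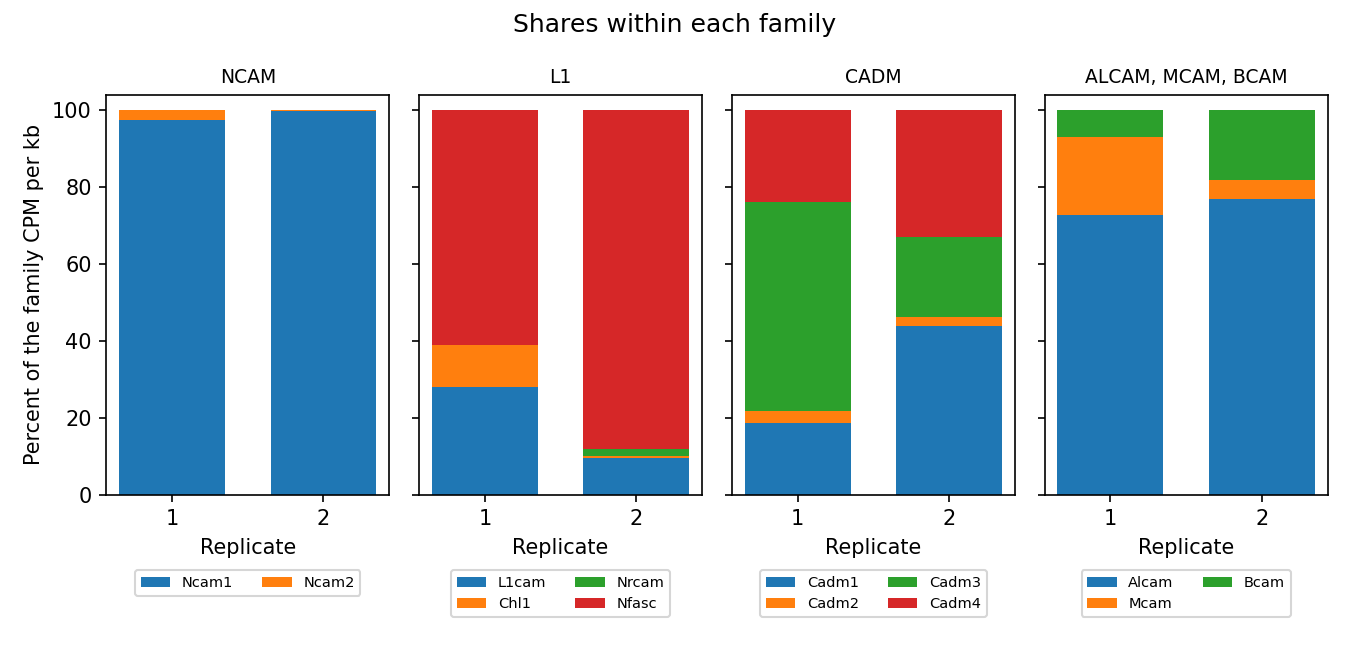
Share of each gene in the summed CPM per kb of its family, in percent, with 1 bar for each library. Ncam1, Nfasc and Alcam fill the larger part of their bars in both libraries, and in the CADM family the largest part is Cadm3 in replicate 1 and Cadm1 in replicate 2.

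Contactins were scarce and mostly counted in replicate 2, and the cause of this was not tested. Of all symbols, 13454 had a read in replicate 1 and 14204 in replicate 2. Cntn1, a lipid-anchored protein that pairs with Cntnap1 and binds neurofascin beside nodes, had 18 and 224 reads, or 1.45 and 18.5 CPM. The exact 95% interval was 0.858 to 2.29 CPM in the first and 16.2 to 21.1 CPM in the second, and the difference was 12.8-fold. Of its 5 paralogs none reached 1 CPM in both libraries, where 45.7% of all symbols did. Cntn3 had 0 and 50 reads, at least 17.1-fold higher in replicate 2, Cntn4 had 0 and 20, and Cntn2 had 0 and 8. Cntn5 was the exception with 2 and 0 reads, and Cntn6 had none. The 6 contactins together had 20 reads in replicate 1 and 302 in replicate 2. Cntnap1, the partner of Cntn1, had 0 and 33 reads.

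Dscam, a receptor of neurite self-avoidance and of netrin, was the lowest member by mean level per kb. In replicate 1 it had 0 reads, as did Nrcam. In replicate 2 it was below Nrcam, at 0.218 against 0.331 CPM per kb, but above Chl1 and Ncam2. With the full annotation's lengths Nrcam was lower by mean. Dscam had 0 and 23 reads, the latter 1.90 CPM (exact 95% interval 1.21 to 2.85 CPM), at least 7.88-fold higher in replicate 2. Its paralog Dscaml1 had 6 and 32 reads, or 0.482 and 2.65 CPM. Genes that are not rows of the tables overlap the exons of Dscam on the other strand in the annotation, and reads from them cannot be told apart from Dscam without knowing the strand setting.

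The libraries thus differed over most of the 10 genes. By a two-sided exact binomial test on the reads of both libraries with Benjamini-Hochberg adjustment over 13416 symbols, 9 of 10 genes differed. The test compares these libraries, not conditions, and with so little counting error it calls most symbols. Higher in replicate 1 were 3 of 10 members (L1cam, Chl1 and Ncam2), where 41.7% of tested symbols were. Higher in replicate 2 were 6 of 10 (Alcam, Ncam1, Cadm1, Cntn1, Nrcam and Dscam), where 44.1% were. Nfasc did not pass, with an adjusted p of 0.97 in this exact test. Differences over 2-fold that passed were found for 7 of 10, against 47.8% of tested symbols.

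The 3 abundant members differed little between the libraries, and the others mostly by more than symbols of like level. The median absolute log2 ratio between the libraries was 2.32 over the 10 genes and 0.95 over all tested symbols. With its sign the median was 0.44 over the 10 genes and 0.04 over all tested symbols. Between 100 and 1000 CPM the typical symbol differed 1.31-fold, and Ncam1, Nfasc and Alcam, all in this range, differed 1.32-fold, 1.002-fold and 1.40-fold. From 10 to 100 CPM the typical difference was 1.79-fold, below the 4.23-fold of L1cam, the 3.43-fold of Cadm1 and the 32.3-fold of Chl1. From 1 to 10 CPM it was 4.96-fold, against 12.8-fold for Cntn1 and 7.97-fold for Ncam2. The typical differences were computed with a prior count of 2, and those of the members without it. With it, the log2 ratio was 3.54 for Cntn1 and -2.59 for Ncam2, where the median absolute value was 2.31. For Chl1 it was -4.76, where that median was 0.84. Of the 3 members with 10 to 100 reads in all, Nrcam and Dscam had no read in 1 library, where 37.0% of the 2613 symbols with so few reads had none in 1 library. A missing transcript at this level was common in these data. Of those symbols, 615 had no read in replicate 1 and 353 had none in replicate 2.

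**Figure D3:**
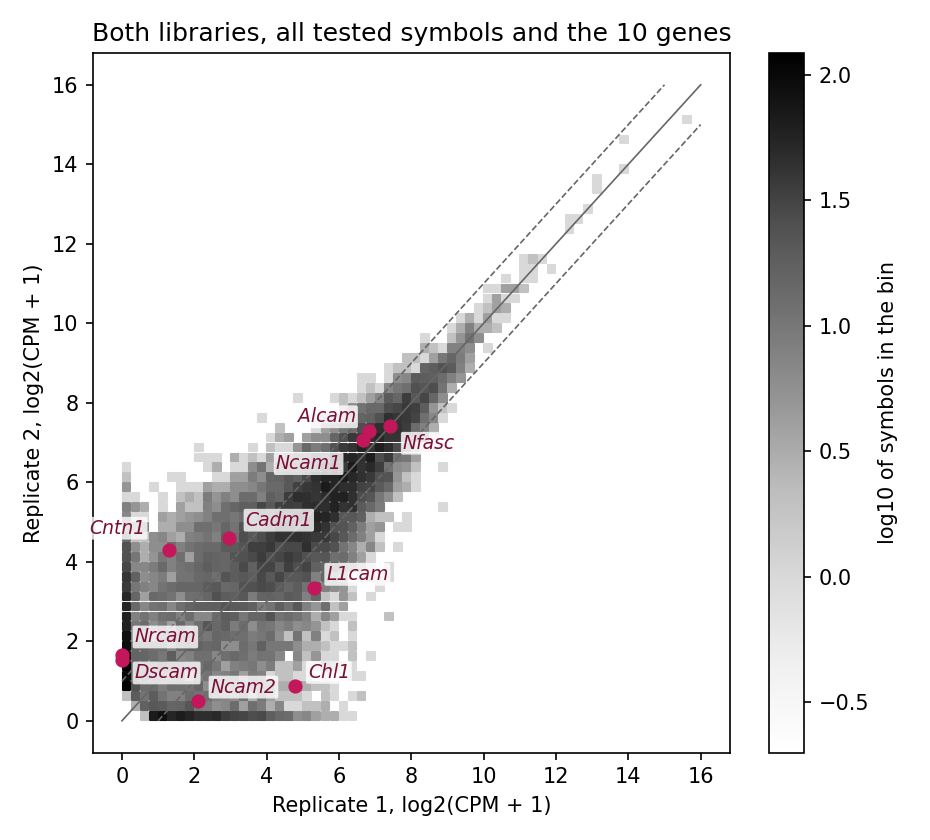
Level in replicate 1 (x axis) against replicate 2 (y axis), both as log2(CPM + 1), with tested symbols as grey bins (darker for more symbols, log10 scale) and the 10 genes in red. The solid line marks equal levels and the dashed lines a 2-fold difference in CPM + 1. Ncam1, Nfasc and Alcam lie within the dashed lines, and the other genes lie outside them, with Nrcam and Dscam on the left edge.

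Some transcripts of other cell types were also higher in replicate 1, the direction in which 41.7% of tested symbols passed. Beside L1cam, Chl1 and Ncam2, all 7 mesenchymal markers passed the same test toward replicate 1 (median log2 ratio -2.14), and so did Cdh5 (15.6 and 0.165 CPM), Laptm5 (37.9 and 3.55 CPM), Rbpjl of the acinar list (30.5 and 8.51 CPM) and Erbb3 (16.2 and 5.70 CPM). Cdh5 stood alone in its list, whose other 4 genes had at most 8 reads in a library. In the immune list 2 of 4 genes, Laptm5 among them, had enough reads to test and passed. The others had at most 4 reads in a library. The acinar list had 3 genes higher in replicate 1 and 1 in replicate 2. The neuronal list was divided, with 4 genes toward replicate 1, among them Elavl4 (35.2 and 5.46 CPM), and Nefl, Nefm and Snap25 toward replicate 2. The glial markers Gfap and Fabp7 were counted only in replicate 2, with 34 and 33 reads, as were Nrcam, Dscam, Cntn2, Cntn3 and Cntn4. Among all 2613 symbols with 10 to 100 reads, absence from replicate 1 was the more common (615, against 353 for replicate 2). The part of these cell types in the levels of the adhesion molecules was not tested. The endocrine list had a median log2 ratio of -0.05, and all tested symbols had one of 0.04. Of its 7 genes, 3 passed toward replicate 1, among them Neurog3 (log2 ratio -0.42), and 3 toward replicate 2. The log2 ratio of Nfasc was 0.002.

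The enzymes and partners of these proteins were largely present. Of 32 such genes, 25 reached 1 CPM in both libraries, where 45.7% of all symbols did. Of the 28 with enough reads to test, 12 passed toward replicate 1 and 12 toward replicate 2. These shares are near the 41.7% and 44.1% of all tested symbols. St8sia2, 1 of the enzymes that attach polysialic acid to Ncam1, had 642 and 1962 reads, or 51.6 and 162 CPM, a 3.14-fold difference toward replicate 2. Per kb it was at 0.673 and 1.60 times the level of Ncam1. The other such enzyme, St8sia4, had 0 and 4 reads, or 0.331 CPM in replicate 2.

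All 11 cytoskeletal linkers reached 1 CPM in both libraries, where 45.7% of all symbols did. Highest per kb were the spectrins Sptan1 at 103 and 79.8 CPM and Sptbn1 at 45.6 and 72.3 CPM, with the band 4.1 protein Epb41l3, which binds Cadm1, at 68.4 and 85.2 CPM. These were listed under the older symbols Spna2, Spnb2 and Epb4.1l3. Of the proteases that cut adhesion molecules from the surface, Bace1 was at 44.7 and 21.0 CPM per kb, Adam10 at 29.0 and 25.1 and Adam17 at 18.7 and 5.54. All 3 passed the test between the libraries, in the direction of replicate 1, where 41.7% of tested symbols did.

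Of ligands and partners in the same membrane, 5 of 11 were at 1 CPM or more in both libraries, near the 45.7% of all symbols. Cd24a, a small sugar-rich ligand of L1cam, was at 354 and 425 CPM per kb, and Prnp, the prion protein, which binds Ncam1, at 105 and 99.4. Ncan, a matrix proteoglycan that binds Ncam1 and L1cam, was at 1.05 and 5.61. All 5 signalling genes were above 1 CPM in both, led per kb by the kinase genes Fyn at 14.98 and 14.3 and Pak1 at 10.9 and 13.9 CPM, with the growth cone gene Gap43 at 5.89 and 6.17.

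**Figure D4:**
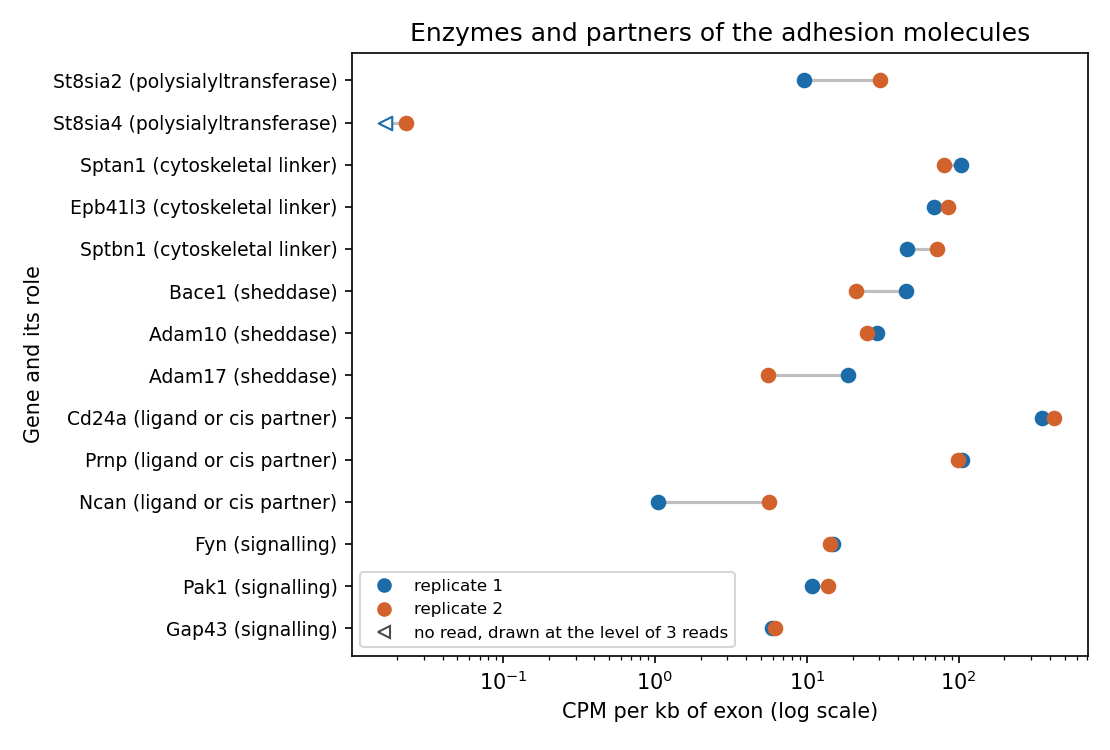
Level of enzymes and partners of the adhesion molecules in CPM per kb of exon (log axis), with 1 point for each library joined by a grey line and the role of each gene in brackets. St8sia2 lies at 9.61 and 30.2, far above St8sia4, and Cd24a is the highest at 354 and 425.

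Other adhesion molecules with immunoglobulin domains were described from a list of 35 genes. Of these, 18 reached 1 CPM in both libraries, where 45.7% of all symbols did. Of 27 tested, 11 passed toward replicate 1 and 13 toward replicate 2, where 41.7% and 44.1% of tested symbols did. Several exceeded the 3 abundant members. Bsg and Emb, companions of lactate transporters, were at 274 and 317 and at 205 and 176 CPM per kb, and F11r, a tight junction molecule, at 69.1 and 40.3. Per kb Bsg was 15.99-fold and 13.2-fold above Alcam. Nptn, a relative of Bsg, was at 20.9 and 10.5, close to the range of Alcam, Ncam1 and Nfasc. Jam3 was at 4.55 and 29.8, and Cxadr, the receptor of coxsackie and adenoviruses, at 16.5 and 13.4.

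Among nectins, which start adherens junctions, Nectin2 was at 11.95 and 53.3 CPM per kb, Nectin3 at 12.6 and 9.07 and Nectin1 at 4.91 and 5.10. All 5 sidekick and Kirrel genes reached 1 CPM in both libraries, where 45.7% of all symbols did. Per kb Kirrel2, a nephrin relative, was at 13.2 and 6.98, Sdk1 at 4.55 and 4.11 and Sdk2 at 2.66 and 4.06. Of the 5 IgLONs, small lipid-anchored molecules of neurons, none reached 1 CPM in both libraries. Ntm had 0 and 88 reads, Negr1 0 and 28 and Iglon5 25 and 4. Of the 5, 4 had no read in replicate 1, where 13454 of all 23284 symbols had a read.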

How the data were processed

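Per the file headers and values, the authors deposited raw read counts per gene symbol, with 1 table for each of 2 libraries and no normalization. Tools named in the submitters' processing notes are TopHat2 2.0.4, Cufflinks 2.0.2, DESeq, cutadapt and FastQC, with mm9 as the build. Which program counted, on which annotation and strand setting, and how multiply mapped reads were handled is not given in the sources used here.

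The members and gene lists were chosen with earlier results of these data known. Counts were scaled with TMM factors (0.9956 and 1.0044; edgeR 4.0.16, R 4.3.3). Exon lengths are unions over the basic transcripts of GENCODE M21, which is on GRCm38; since the build differs, coordinates are left out. A length was found for 22804 symbols (97.9%). Reads were compared between libraries by a two-sided exact binomial test (scipy 1.17.1). Benjamini-Hochberg adjustment at 0.05 covered the 13416 symbols with at least 10 reads. The test was checked on simulated counts that varied by counting error only. That check cannot give its error rate for libraries with a wider spread. Log2 ratios are replicate 2 over replicate 1 with a prior count of 2. A count of 0 allows up to 3 reads, or 0.241 and 0.248 CPM.

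Named genes were the 10 members, all paralogs, both polysialyltransferases and the 3 highest per kb of each other subgroup of the lists. Others with values are cell type markers, overlapping genes, or Cd6 and Cntnap1, which were chosen after their values were seen. At least 92.9% of the 25-base words of each member were found in no other gene. Some marker genes are not reported here by name and stay in the counts and sums of their lists. Protein sequences were not analysed here.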

Additional observations from a re-analysis of the deposited data

How the results depend on the processing

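No paired analysis was possible because both libraries belong to 1 group. The number of members at 1 CPM or more in both libraries was 6 under the other scalings (plain totals, DESeq2 1.42.0 size factors, totals without Rn45s or without the 10 most abundant symbols), 7 at a limit of 0.5 CPM, 5 at 5 CPM and 8 in each library alone. The number differing between libraries was 9 under those scalings and with no count filter. It was 7 when a 2-fold difference was also required, and 6 with at least 100 reads, a filter that Ncam2, Nrcam and Dscam do not pass. In the main setting 45.7% of all symbols reached 1 CPM in both libraries. Of tested symbols, 41.7% and 44.1% differed toward replicates 1 and 2, and 47.8% differed by over 2-fold. Shares of all symbols under the other limits and filters are not given here. The 9 members that differed kept their direction under the other scalings, while the log2 ratio of Nfasc, which did not differ, went from 0.002 to -0.01 with DESeq2 size factors. The share of Nfasc in the L1 family ran from 61.0% to 88.1% when a library was left out, that of Ncam1 from 97.4% to 99.7% and that of Cadm1 from 18.8% to 43.8%. By the longest coding length instead of exon length, the share of Alcam was 88.7% (74.9% by exon length), which follows from the change of lengths. In the order by mean level per kb, 6 of 10 members kept their place with the full annotation and 6 with the longest coding length, and Alcam, Ncam1 and Nfasc stayed the 3 highest, in that order. Depth limits Ncam2, Nrcam and Dscam, which had 46 reads or fewer in all.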

Other observations

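L1cam and its neighbour Arhgap4, a gene on the same strand whose annotated span overlaps that of L1cam without sharing exons of its basic transcripts, had like ratios between the libraries. Arhgap4 had 977 and 219 reads in replicates 1 and 2, and L1cam had 478 and 110. Arhgap4 was singled out after its values were seen, and whether reads run from one gene into the other was not tested. Gm10538, on the other strand within the span of Nfasc, had 29 reads and 1 read, while Nfasc was even.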
